A study of Mus musculus with 8 samples.

Results

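A group of 10 genes of the parietal endoderm and of the basement membrane was followed over wild-type and menin-null mouse cells: Lama1, Lamb1, Lamc1, Col4a1, Col4a2, Nid1, Sparc, Srgn, Pth1r and S100g. The members were chosen by their rise in menin-null islet-like cells in these same arrays, and every probe set whose platform symbol is a member was taken. That gave 10 of the 18193 genes with 1 symbol per probe set, and 19 of the 45101 probe sets (oligonucleotide groups that each report on 1 transcript) of the array. All 10 members were measured.

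Basement membranes are thin sheets of extracellular matrix on which epithelia rest. A laminin network and a type IV collagen network form separately and are joined by nidogen and perlecan. Parietal endoderm is the extraembryonic cell layer that arises from primitive endoderm in the early mouse embryo and secretes Reichert's membrane, an unusually thick basement membrane made mostly of laminin and type IV collagen. Stem cells in culture can give rise to it under factors of the GATA and SOX families, which also direct the visceral endoderm.

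RNA was measured in mouse embryonic stem cells (mESCs) and in pancreatic islet-like endocrine cells (PILECs) made from them in culture through embryoid bodies. Wild-type cells were the TC-1 line, and menin-null cells were the 3.2N line, which lack menin. Men1 encodes menin, a tumour suppressor and a component of histone H3 lysine 4 methyltransferase complexes. Both lines have the 129S6/SvEvTac background, each genotype is 1 line, and so genotype and line cannot be told apart. The mESCs were expanded on irradiated fibroblast feeders and then kept without feeders before RNA was taken. Each of the 4 groups (wild-type mESCs, menin-null mESCs, wild-type PILECs, menin-null PILECs) held 2 arrays from 2 independent cultures, and a p-value here measures how cultures of a single line vary.

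Values are the deposited log2 signals, on which a difference of 1 is a doubling, and each gene is given by its brightest probe set. Across probe sets the arrays of a group correlated at 0.993 to 0.997, and the second menin-null mESC array was no closer to its replicate (0.993) than to the first wild-type mESC array (0.994). Men1 RNA checked the labels: its mean fell from 9.94 to 7.79 in mESCs and from 9.99 to 7.99 in PILECs (limma adjusted p = 7.1e-05 and 7.4e-05). As a check of the PILEC label, Chgb had mean signals of 5.15 in wild-type mESCs and 10.75 in wild-type PILECs, Sst 6.64 and 9.06, Chga 7.87 and 9.25, and Ins2 6.82 and 7.23. Neurod1, whose protein the paper used as a differentiation marker, was lower in wild-type PILECs, at 9.40 and 8.95. Gcg, at 4.21 and 4.36, and Pdx1, at 5.61 and 5.38, were under 7 in both. So were Ppy, at 5.95 and 5.51, and Iapp, at 4.28 and 4.43. Other islet transcription factor genes were higher in wild-type PILECs than in wild-type mESCs. Nkx2-2 had means of 4.92 in mESCs and 7.16 in PILECs, Isl1 6.38 and 7.58, Pax6 8.06 and 9.14, and Nkx6-1 6.48 and 7.53.

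In PILECs, all 10 members had both menin-null arrays above both wild-type arrays, against 24.7% of all genes. This is the contrast by which the members were selected, so nothing is read from that count and no test is given for it. The differences (menin-null minus wild-type) ran from 0.46 for Sparc to 2.67 for S100g on the log2 scale, with a median of 1.37 where the median over all genes was -0.01. For all 10 members, by their brightest probe sets, menin-null PILECs held the highest mean of the 4 groups. In these bulk samples a larger share of cells of one type and more RNA per cell cannot be told apart. Within the menin-null PILECs array 1 lay above array 2 in 9 of 10 members, by a median of 0.42, where the median over all genes was -0.01.

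**Figure D1:**
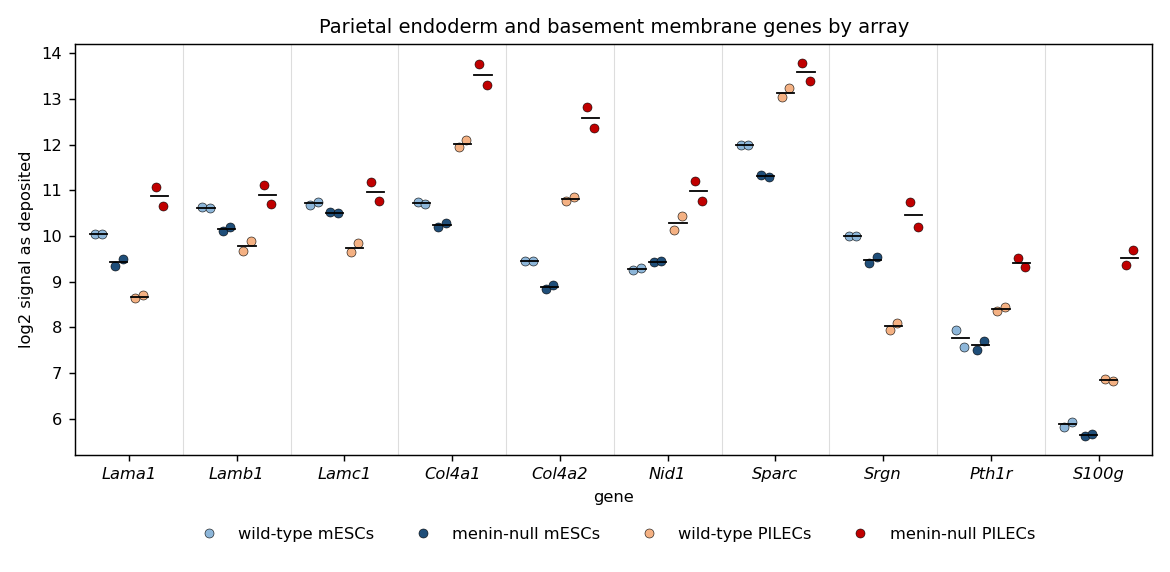
Deposited log2 signal (vertical axis) of the 10 members on each of the 8 arrays, with 1 point per array, a bar for each group mean and colours for the 4 groups. Menin-null PILECs lie highest for every member, and Lama1, Lamb1, Lamc1 and Srgn are the members whose lowest group is wild-type PILECs.

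Lama1, Lamb1 and Lamc1 encode the alpha 1, beta 1 and gamma 1 chains of laminin-111, the laminin of early embryonic basement membranes. Lama1 stood at 10.03 on both wild-type mESC arrays, at 9.35 and 9.50 in menin-null mESCs, at 8.65 and 8.70 in wild-type PILECs, and at 11.07 and 10.66 in menin-null PILECs. No 2 of these groups overlapped. From wild-type to menin-null PILECs the difference was 2.19, or 4.56-fold. Lamb1 read 10.62 and 10.60 in wild-type mESCs, 10.11 and 10.20 in menin-null mESCs, 9.68 and 9.89 in wild-type PILECs, and 11.11 and 10.70 in menin-null PILECs. Its arrays kept the order of Lama1 over a narrower range, with a difference of 1.13 (2.18-fold) in PILECs and a small gap between the lower menin-null PILEC array and the higher wild-type mESC array. Lamc1 read 10.68 and 10.75 in wild-type mESCs, 10.53 and 10.49 in menin-null mESCs, 9.64 and 9.84 in wild-type PILECs, and 11.19 and 10.76 in menin-null PILECs. The difference in PILECs was 1.23 (2.35-fold), and menin-null PILEC array 2 was level with the higher wild-type mESC array. By these probe sets all 3 chains had the order menin-null PILECs, wild-type mESCs, menin-null mESCs, wild-type PILECs. A dimmer Lamc1 probe set did not keep it, with menin-null PILECs under both mESC groups.

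Col4a1 and Col4a2 encode the chains of the main type IV collagen trimer, and the genes lie head to head. Their RefSeq promoter windows (assembly GRCm38.p6, 250 bases before to 50 bases after the start) are printed because the pair moved together and shares this stretch: the starts are 21 bases apart on opposite strands, and the windows chr8:11312777-11313076 (minus strand) and chr8:11312555-11312854 (plus strand) have 78 bases in common. Capitals mark a GC box (GGGCGG) or a CCAAT box (CCAAT), each on either strand. The array annotation names no build, and these windows were not measured on the arrays.
Col4a1: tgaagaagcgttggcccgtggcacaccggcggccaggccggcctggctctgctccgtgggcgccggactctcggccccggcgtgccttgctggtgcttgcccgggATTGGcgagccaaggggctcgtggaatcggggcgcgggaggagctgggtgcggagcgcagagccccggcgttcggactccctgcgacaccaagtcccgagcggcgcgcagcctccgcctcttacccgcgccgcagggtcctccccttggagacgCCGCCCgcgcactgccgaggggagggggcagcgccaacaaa
Col4a2: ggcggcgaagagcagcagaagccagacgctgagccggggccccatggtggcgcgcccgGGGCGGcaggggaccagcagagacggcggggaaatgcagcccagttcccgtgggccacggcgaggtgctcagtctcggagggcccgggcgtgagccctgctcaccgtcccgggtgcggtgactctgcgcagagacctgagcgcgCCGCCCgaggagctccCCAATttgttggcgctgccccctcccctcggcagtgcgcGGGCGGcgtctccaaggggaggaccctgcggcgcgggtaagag
The windows held 74% and 73.7% G or C, against a median of 52.7% over 32851 windows.

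Col4a1 read 10.74 and 10.70 in wild-type mESCs, 10.20 and 10.29 in menin-null mESCs, 11.94 and 12.10 in wild-type PILECs, and 13.75 and 13.31 in menin-null PILECs. Col4a2 read 9.45 on both wild-type mESC arrays, 8.85 and 8.93 in menin-null mESCs, 10.76 and 10.85 in wild-type PILECs, and 12.82 and 12.36 in menin-null PILECs. For both chains no groups overlapped, and both PILEC groups lay above both mESC groups, unlike the laminin chains. The differences in PILECs were 1.51 for Col4a1 (2.85-fold) and 1.78 for Col4a2 (3.44-fold).

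Nid1 encodes nidogen-1, which binds laminin and type IV collagen, and Sparc encodes a collagen-binding protein that parietal endoderm secretes in large amounts. Nid1 read 9.26 and 9.30 in wild-type mESCs, 9.42 and 9.45 in menin-null mESCs, 10.13 and 10.44 in wild-type PILECs, and 11.19 and 10.76 in menin-null PILECs. It was the one member with both menin-null mESC arrays above both wild-type mESC arrays, and its difference in PILECs was 0.69 (1.61-fold). Sparc read 11.98 and 12.00 in wild-type mESCs, 11.34 and 11.30 in menin-null mESCs, 13.04 and 13.23 in wild-type PILECs, and 13.79 and 13.39 in menin-null PILECs. At 0.46 (1.37-fold) Sparc had the smallest difference in PILECs among the members, and the nearest arrays of the PILEC groups were 13.23 and 13.39.

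Srgn, Pth1r and S100g are not structural parts of the membrane. Srgn encodes serglycin, the core protein of secretory proteoglycans, Pth1r the receptor for parathyroid hormone and its related protein, which marks early parietal endoderm, and S100g the calcium-binding protein calbindin-D9k. Srgn read 9.99 on both wild-type mESC arrays, 9.41 and 9.55 in menin-null mESCs, 7.95 and 8.09 in wild-type PILECs, and 10.73 and 10.19 in menin-null PILECs. It took the group order of the laminin chains, with the widest swing of the 4: the difference in PILECs was 2.44, or 5.43-fold. Pth1r read 7.94 and 7.57 in wild-type mESCs, 7.51 and 7.70 in menin-null mESCs, 8.36 and 8.44 in wild-type PILECs, and 9.51 and 9.32 in menin-null PILECs. Its mESC groups overlapped, and its difference in PILECs was 1.01 (2.02-fold). S100g read 5.82 and 5.93 in wild-type mESCs, 5.62 and 5.66 in menin-null mESCs, 6.88 and 6.83 in wild-type PILECs, and 9.36 and 9.69 in menin-null PILECs. The difference of 2.67 (6.38-fold) was the largest of the 10, but the first 3 groups were under 7, the level taken here as expressed, so the fold is approximate. S100g was also the member in which menin-null PILEC array 2, not array 1, was the higher.

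The promoter windows of Srgn (first listed start, chr10:62527396-62527695, minus strand) and S100g (chrX:162964550-162964849, minus strand), the members with the largest PILEC differences, are printed because they differ from the collagen pair in base composition and boxes. Capitals mark a TATA box (TATAAA) and, in S100g, a SOX motif (AACAAT), on either strand.
Srgn: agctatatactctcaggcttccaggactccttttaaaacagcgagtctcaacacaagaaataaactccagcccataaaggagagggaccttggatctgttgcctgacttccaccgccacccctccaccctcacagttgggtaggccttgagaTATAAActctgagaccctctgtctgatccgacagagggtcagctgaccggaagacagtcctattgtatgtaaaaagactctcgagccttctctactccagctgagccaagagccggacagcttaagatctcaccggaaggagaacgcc
S100g: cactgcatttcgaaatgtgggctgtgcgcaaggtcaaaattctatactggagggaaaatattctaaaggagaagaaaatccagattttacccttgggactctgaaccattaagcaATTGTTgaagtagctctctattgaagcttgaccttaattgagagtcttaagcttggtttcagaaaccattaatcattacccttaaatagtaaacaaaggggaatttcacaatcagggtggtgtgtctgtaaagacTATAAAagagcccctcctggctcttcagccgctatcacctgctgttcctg
Their share of G or C was 51% and 41%. RefSeq windows were at hand for 8 of the 10 members, 11 windows in all, and not for Lama1 and Lamc1. Over those 11, both strands read, the GATA motif (AGATAA) was found in 0 and the AP-1 motif (TGANTCA) in 0, against 11.2% and 7.81% of all windows. The SOX motif was in 1 (10.7% of all windows), the TATA box in 2 (13.6%), the CCAAT box in 5 (37.4%) and the GC box in 6 (35.7%). A match is a run of letters in this window only, and none of these motifs contains another.

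In mESCs, whose arrays had no part in the choice of members, the sign was mostly the opposite. Of the 10 members, 9 had a lower mean in menin-null than in wild-type mESCs, as did 8822 of all 18193 genes. The median difference of the 10 was -0.47, against 0.01 over all genes. In 8 members both menin-null arrays lay below both wild-type arrays, which held for 24.9% of all genes. Sparc fell by 0.67 (SE 0.14, 95% interval -0.98 to -0.35, 1.59-fold, limma adjusted p = 0.042), and it was the 1 member that passed the test in this direction, where 2.36% of all genes did. No member passed in the other direction, where 1.29% of all genes did. The call on Sparc was lost without either wild-type mESC array (adjusted p = 0.222 and 0.198) and on leaving out menin-null mESC array 1 (0.1) or array 2 (0.061). PILEC arrays enter the common estimate of the spread, and the adjusted p was 0.083 on leaving out one from the wild-type pair and 0.025 on leaving out one from the menin-null pair.

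Lama1, at -0.61 (SE 0.13, limma adjusted p = 0.055), and Col4a2, at -0.56 (SE 0.14, adjusted p = 0.081), came next and did not pass. Col4a1 differed by -0.48, Lamb1 by -0.46 and Srgn by -0.51, with adjusted p-values of 0.124, 0.133 and 0.147. Each of these members, and Sparc, had an unadjusted p under 0.05 and an interval on the side of lower values, 6 members in all, where 18.5% of all genes had an unadjusted p under 0.05 in mESCs in either direction. Lamc1 differed by -0.20 (95% interval -0.53 to 0.13), S100g by -0.23 (-0.50 to 0.03), Pth1r by -0.15 (-0.47 to 0.17) and Nid1 by 0.15 (-0.21 to 0.51). These 4 intervals include 0, and the arrays do not settle a direction for them.

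**Figure D2:**
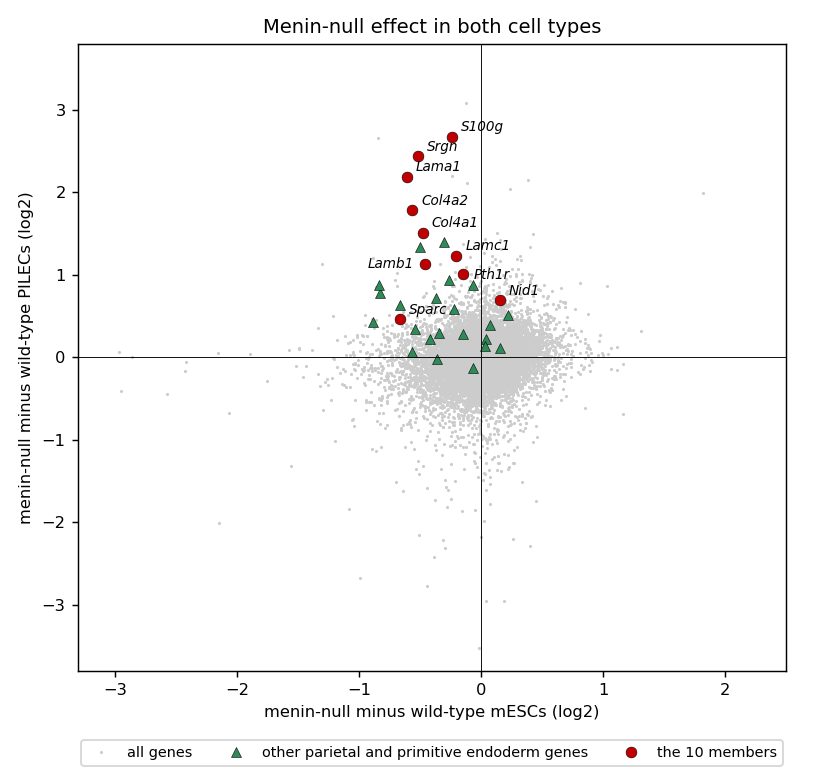
Menin-null minus wild-type log2 difference of the 10 members in mESCs (horizontal axis) and in PILECs (vertical axis), with the members as red circles, other parietal and primitive endoderm genes as green triangles and all genes in grey. All 10 points lie above 0 in PILECs, the contrast that chose them, and 9 of 10 lie below 0 in mESCs. Over all 18193 genes, 8822 lie below 0 in mESCs.

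The change on differentiation, PILECs minus mESCs, shares its PILEC arrays with the choice of members and is given as values only. The share of all genes that moved each way is not given, so nothing is read from the number of members. In wild-type cells Srgn (-1.97), Lama1 (-1.36), Lamc1 (-0.97) and Lamb1 (-0.83) were lower in PILECs on the log2 scale. The other 6 were higher, from 0.64 for Pth1r to 1.35 for Col4a2. In menin-null cells all 10, by their brightest probe sets, were higher in PILECs, from 0.46 for Lamc1 to 3.88 for S100g. The laminin chains and Srgn thus had opposite signs in the 2 lines, with Lama1 at -1.36 in the wild type and 1.44 without menin. The collagen IV chains went up in both, Col4a1 by 1.30 and 3.29 and Col4a2 by 1.35 and 3.70.

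Several probe sets reported on Lamb1 (4), Nid1 (3), Sparc (3), Lamc1 (2) and Col4a1 (2), and the other 5 members had 1 each. Of the 19 probe sets, 17 had both menin-null PILEC arrays above both wild-type arrays. In mESCs 13 had both menin-null arrays below both wild-type arrays. By the brightest probe set, 24.7% and 24.9% of all genes did so, and the share over all probe sets is not given. The PILEC contrast chose the members, so nothing is read from its count. The Col4a1 probe sets gave 1.51 and 1.90 in PILECs and -0.48 and -0.52 in mESCs. In mESCs the probe sets of Sparc ran from -0.67 to 0.00, where 0.00 came from the dimmest (mean signal 7.47) and the others gave -0.67. Those of Nid1 ran from -0.20, from the dimmest (4.56) with overlapping groups, to 0.48. The other Nid1 probe sets, at 0.15 and 0.48, each had both menin-null mESC arrays above both wild-type arrays, so the size depends on the probe set. For Lamb1, 3 probe sets gave 1.13 to 1.18 in PILECs and the dim one, with a mean signal of 6.22, gave 0.32. Probe sets of a gene disagreed where one was dim: for Nid1 they ran from 0.10 (mean signal 4.56) to 0.70, for Sparc from 0.01 (7.47) to 0.65, and for Lamc1 from 0.53 (7.36) to 1.23.

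**Figure D3:**
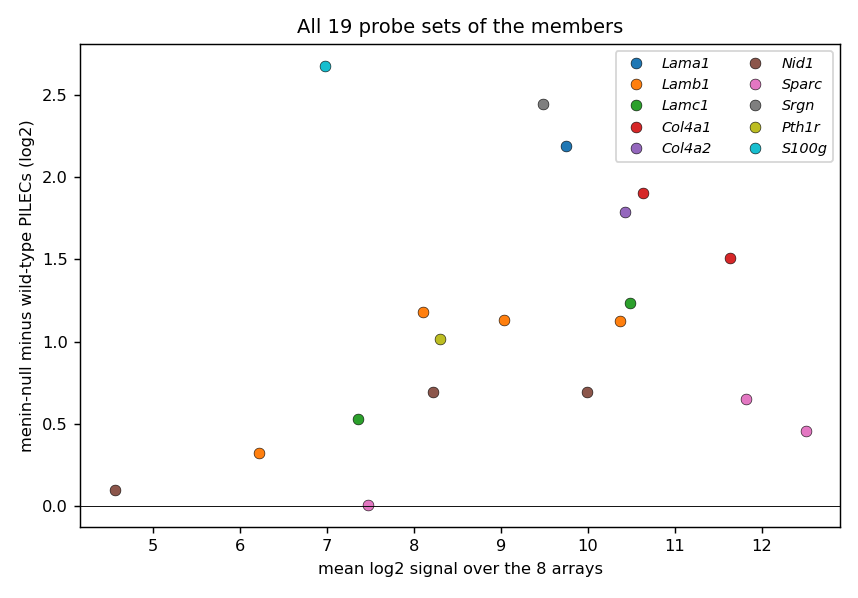
Menin-null minus wild-type log2 difference in PILECs (vertical axis) against the mean log2 signal over the 8 arrays (horizontal axis), 1 point for each of the 19 probe sets, coloured by gene. The probe sets near 0 belong to Nid1 (mean signal 4.56) and Sparc (7.47).

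Other components of the membrane were counted next. Of 29 other basement membrane genes measured, 2 passed the limma test as higher in menin-null PILECs and 2 as lower, where 2.26% and 4.42% of all genes did, and their median difference was 0.06. Tinagl1, a secreted matrix glycoprotein, read 7.41 and 7.46 in wild-type and 9.16 and 9.003 in menin-null PILECs, a rise of 1.65 (SE 0.11, 3.14-fold, limma adjusted p = 0.00053). Ntn4, which encodes the laminin-related netrin-4, rose by 0.62 (adjusted p = 0.023), while Hmcn1, encoding hemicentin-1, fell by 0.64 (0.02) and Col4a6, a collagen IV chain of other trimers, fell by 0.43 (0.042). The closest partners of the members did not pass: Nid2 (nidogen-2) differed by -0.43 (adjusted p = 0.239), Hspg2 (perlecan) by 0.27 (0.292), Agrn (agrin) by 0.22 (0.144) and Lama5 by 0.06 (0.84). In mESCs 0 of the 29 passed in either direction by limma, with 3 at an unadjusted p under 0.05 (18.5% of all genes).

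For this and each list below, the share of all genes that passed was 2.26% higher and 4.42% lower in menin-null PILECs. In menin-null mESCs it was 1.29% and 2.36%. Enzymes that modify or fold collagen and laminin, and their inhibitors, gave 1 rise and 0 falls among 27 genes in menin-null PILECs, Plod3 (a collagen lysyl hydroxylase) by 0.41 with adjusted p = 0.036. Serpinh1, the collagen chaperone, read 12.53 and 12.75 in wild-type and 13.04 and 12.66 in menin-null PILECs, so its groups overlapped (difference 0.21, adjusted p = 0.412). Among 21 matrix receptors, the laminin-binding integrin chains Itga6 and Itga3 rose by 0.59 and 0.46 (limma adjusted p = 0.0082 and 0.035) and 0 fell. In mESCs Plod1 rose by 0.69 (0.02) and Sdc4, the proteoglycan syndecan-4, fell by 0.49 (0.022). Around Pth1r and S100g, 13 genes of calcium and parathyroid hormone handling gave 0 calls in PILECs by limma, with 4 at an unadjusted p under 0.05 (23.3% of all genes), and Ramp2, a receptor partner, rose by 0.73 in mESCs (0.018). Vdr, the vitamin D receptor, had means of 6.28 and 6.50 in wild-type and menin-null PILECs.

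**Figure D4:**
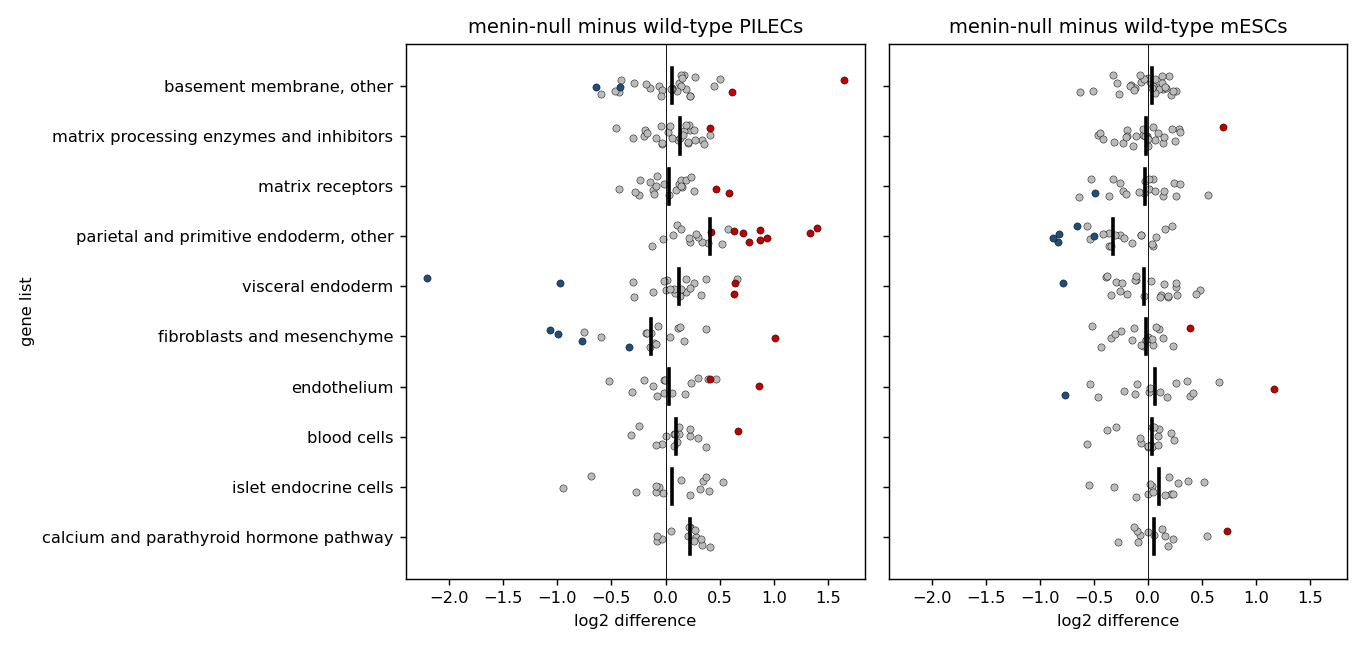
Menin-null minus wild-type log2 difference (horizontal axis) of every measured gene of the 10 gene lists (rows), in PILECs and in mESCs, 1 point per gene, red or blue where limma called it higher or lower, with a black bar at the median of the list and vertical scatter only to part the points. Among parietal and primitive endoderm genes 9 of 22 passed as higher in PILECs and 5 of 22 as lower in mESCs.

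Other genes of parietal endoderm, which lays down Reichert's membrane, and of primitive endoderm included more rises. Of 22 measured, 9 passed as higher and 0 as lower in menin-null PILECs (2.26% and 4.42% of all genes), with a median of 0.41. The list was drawn up with earlier results of these data known and is no independent support. Of the transcription factors, Sox17 read 6.41 and 6.77 in wild-type and 8.02 and 7.95 in menin-null PILECs, a rise of 1.40 (SE 0.13, limma adjusted p = 0.0023). Gata4, which activates laminin and other endoderm genes, read 6.32 and 6.39 against 7.70 and 7.68, a rise of 1.34 (SE 0.08, adjusted p = 0.00026). Sox7 rose by 0.94 (0.005) and Foxa2 by 0.88 (0.004), whereas Gata6, at 0.58, did not pass (0.052). The epithelial keratins Krt18, Krt8 and Krt19 rose by 0.87, 0.77 and 0.42, the co-activator gene Cited1 by 0.72 and the homeobox gene Rhox5 by 0.63.

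Not every gene of that lineage followed. In PILECs Thbd (thrombomodulin) differed by 0.11, Plat (tissue plasminogen activator) by 0.23, Fst (follistatin) by 0.34, Pdgfra by 0.40 and Dab2 by 0.07, all with limma adjusted p-values above the threshold of 0.05. Without wild-type PILEC array 1 or array 2 the count of 9 became 5 and 4, and Gata4, Sox17, Foxa2 and Krt18 passed without each of the 8 arrays in turn.

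In mESCs the calls on this list lay in the other direction. Of the 22 genes, 0 passed as higher and 5 as lower in menin-null mESCs (1.29% and 2.36% of all genes), with a median of -0.33. Krt19 fell by 0.88, Krt18 by 0.84, Krt8 by 0.83, Rhox5 by 0.66 and Gata4 by 0.50 (limma adjusted p = 0.0049, 0.0049, 0.019, 0.0061 and 0.019). Without wild-type mESC array 1 or array 2 the count of 5 became 0 and 1. When the menin-null difference in PILECs was tested against that in mESCs, 10 of the 22 had a higher value in PILECs, where 1.5% of all genes did, with Gata4 at 1.84 and Krt18 at 1.71 on the log2 scale. That count became 6 on leaving out any 1 of the 4 wild-type arrays.

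**Figure D5:**
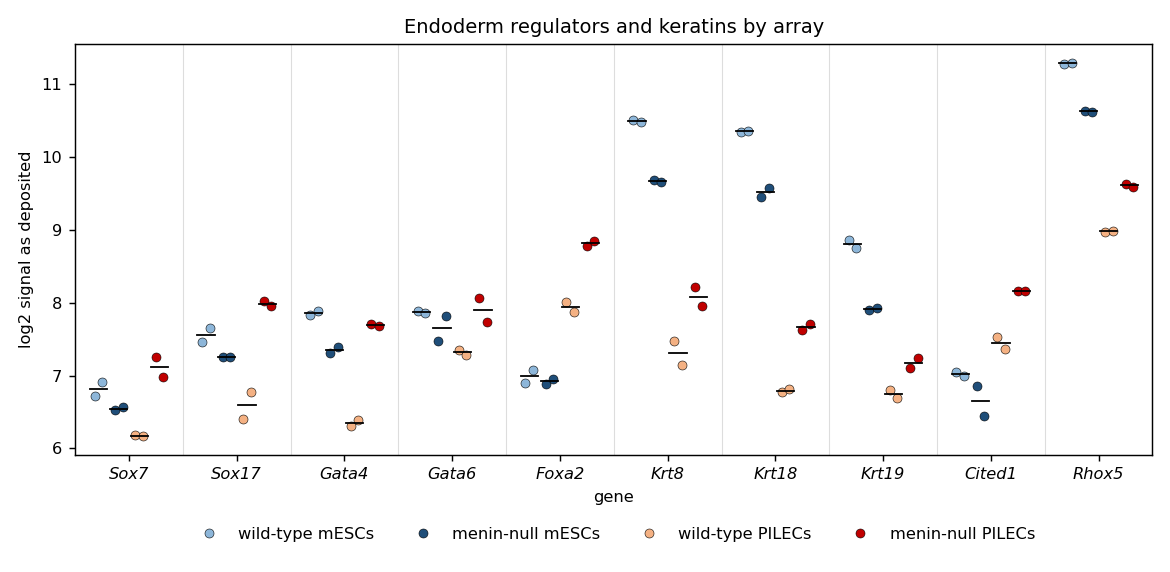
Deposited log2 signal (vertical axis) of 10 endoderm genes on each of the 8 arrays, with 1 point per array, a bar for each group mean and colours for the 4 groups. Menin-null PILECs lie above wild-type PILECs for each gene shown. In mESCs limma called Gata4, Krt8, Krt18, Krt19 and Rhox5 lower in menin-null cells. Sox7, Sox17, Gata6 and Cited1 also had both menin-null mESC arrays below both wild-type arrays but did not pass.

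Visceral endoderm is the sister lineage. Of its 23 genes, 2 passed as higher in menin-null PILECs, Ihh at 0.64 and Cubn at 0.63 (limma adjusted p = 0.042 and 0.045), and 2 as lower. Both rises lay under the expressed level. Ihh had means of 5.91 in wild-type and 6.55 in menin-null PILECs, and Cubn 5.99 and 6.62. The median was 0.13, and 17 of 23 differences were above 0 (49% of all genes). Ttr, the transthyretin gene, fell by 2.21, from 10.62 and 10.73 to 8.55 and 8.39 (adjusted p = 0.00026), and Eomes fell by 0.97 (0.0046). The summed linear signal of the list, on the log2 scale and with Ttr in it, was 12.58 to 12.61 in wild-type and 12.32 to 12.39 in menin-null PILECs. Afp, which marks visceral endoderm, stayed under 7 on all arrays, with a difference of 0.66 in PILECs (0.056). In mESCs Amn, a visceral endoderm receptor subunit, fell by 0.79 (0.031).

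Markers of other cells that make basement membrane or Srgn were read beside the members. Of 19 fibroblast and mesenchyme genes, 1 passed as higher in menin-null PILECs (Thy1, by 1.01, limma adjusted p = 0.0014) and 4 as lower: Lum at -1.07, Prrx1 at -0.99, Col1a2 at -0.78 and Twist1 at -0.34 (adjusted p = 0.048, 0.014, 0.045 and 0.045). Their summed linear signal, on the log2 scale, was 15.44 to 15.63 in wild-type and 15.14 to 15.53 in menin-null PILECs, and 12.68 to 12.77 over the mESC arrays. Col3a1, at 13.48 in wild-type and 13.34 in menin-null PILECs, and Col1a1, at 11.27 and 11.32, were high in both lines of PILECs, and in mESCs Col3a1 was at 5.17 and 5.04 and Col1a1 at 6.58 and 6.72, under the expressed level. Thy1 also rose in menin-null mESCs, by 0.39 (adjusted p = 0.046).

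Endothelium gave 2 rises among 16 genes in menin-null PILECs, Flt1 by 0.86 and Plvap by 0.41 (limma adjusted p = 0.01 and 0.046), and 0 falls. The defining genes Pecam1 and Cdh5 had differences of -0.31 and 0.40 that did not pass (adjusted p = 0.375 and 0.357), and the summed signal was 11.00 to 11.10 in wild-type and 10.98 to 11.36 in menin-null PILECs. In mESCs Robo4 rose by 1.16 and Tek fell by 0.77 (adjusted p = 0.021 and 0.032). Blood cells, in which serglycin is abundant, gave 1 rise among 16 genes in PILECs, Kit by 0.67 (adjusted p = 0.012). The summed signal, with Kit in it, was 10.94 to 11.01 in wild-type and 11.21 to 11.26 in menin-null PILECs. Only 6 of the 16 reached a group mean of 7. Kit had means of 8.85 in wild-type and 9.52 in menin-null PILECs, and 9.40 in wild-type mESCs. Ptprc, the pan-leukocyte gene, read between 4.50 and 5.01 on the 8 arrays, under the expressed level in every group. Tyrobp was also under it, with means of 5.37 in wild-type and 5.45 in menin-null PILECs. Other blood genes were above 7 in wild-type and menin-null PILECs: Spi1 at 7.15 and 7.12, Csf1r at 7.36 and 7.36, and Tal1 at 8.60 and 8.90. Spi1 and Csf1r were above 7 in both mESC groups as well. Islet endocrine genes gave 0 calls among 14 in either cell type by limma, with 6 at an unadjusted p under 0.05 in PILECs and 2 in mESCs (23.3% and 18.5% of all genes). Of those 6 in PILECs, Sst differed by -0.95 and Isl1 by -0.69 (limma adjusted p = 0.0505 and 0.076). The others were Chgb at 0.53, Gcg at 0.40, Chga at 0.38 and Ppy at 0.32. The summed signal of the islet list, with Chgb in it, was 12.10 to 12.36 in wild-type and 12.30 to 12.48 in menin-null PILECs. The part of these cell types in the members' rise was not tested.

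Each member was set against the mean of the 10 scaled members over the 8 arrays, which includes it, with a correlation of 0.93 for S100g, 0.91 for Pth1r, 0.90 for Col4a2, 0.89 for Col4a1, 0.82 for Lama1 and Nid1, 0.77 for Lamb1, 0.76 for Sparc and 0.62 for Lamc1 and Srgn. Among 6290 other genes with a group mean of at least 7 and a range of at least 1 between group means, the pattern was most alike in Fxyd3 (r = 0.98), Flt1 (0.97), Cdhr1 (0.94), Gda (0.93), Igfbp1 (0.92), Hpca (0.92), Hspa1a (0.92), Serpina3n (0.92), C1ql2 (0.91) and Crispld2 (0.90). The 8 points share 4 groups and the 2 cell types, so these values describe likeness only. Igfbp1 spanned the widest PILEC difference of the 10, reading 6.69 and 6.36 in wild-type and 9.52 and 9.70 in menin-null PILECs. Serpina3n was the exception in mESCs, with a mean difference of 0.24 where the other 9 had negative values, from -0.45 for Hspa1a to -0.08 for C1ql2.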

How the data were processed

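RNA from 8 cultures, 2 in each of the 4 groups that the sample titles name, was hybridised to Affymetrix whole-genome mouse arrays. The values deposited by the authors are log2 signals per probe set and array. RMA and Partek are given in the submitters' processing notes, the study's methods name MAS 5.0, and which of them made the values is not settled. Control probe sets (64) and those with no symbol (9160) or several symbols (932) were left out, and the probe set of highest average stood for each gene.

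A mean per group was fitted with limma 3.58.1 (lmFit and eBayes on all 8 arrays, R 4.3.3) and p-values were adjusted over 18193 genes by Benjamini-Hochberg, with a threshold of 0.05 for the words rose and fell. In menin-null PILECs 412 genes were higher and 804 lower (606 and 773 after a further quantile normalisation), and in mESCs 234 and 429. The level of 7 taken as expressed was set here and is no measured background. The number of arrays limits the precision. The members and the 10 gene lists were chosen with earlier results of these data known. The rule for named genes took all members, Men1, for each list the 3 largest changes per direction in PILECs and 2 in mESCs among those past the threshold, a set of markers (Pthlh among them is not analysed here) and the 10 genes most like the members. Krt18, Krt8, Krt19, Cited1, Rhox5, Twist1, Chgb, Chga, Sst, Gcg, Pdx1, Neurod1, Ppy, Iapp, Isl1 and Vdr fall outside it where given. These were chosen after their values were seen. Alternatives were other probe sets, normalisation, filter, fitted arrays and variance models, a replicate block and leaving out each array. The fit was tested on simulated data. Promoters came from RefSeq (GRCm38.p6). Plots used matplotlib 3.10.9 and pandas 2.3.3 in Python 3.11.15.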

Additional observations from a re-analysis of the deposited data

Results flagged for a closer look

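The effect of menin loss differed between the cell types for 20 listed genes that are no members, by the limma test of that difference with adjusted p under 0.05. Over all 18193 genes, 272 had a higher and 285 a lower effect in PILECs by that test. The values are the menin-null minus wild-type log2 difference in PILECs minus that in mESCs. Among parietal and primitive endoderm genes it was higher in PILECs for Gata4 (1.84), Krt18 (1.71), Sox17 (1.70), Krt8 (1.60), Krt19 (1.31), Rhox5 (1.29), Sox7 (1.21), Cited1 (1.08), Foxa2 (0.94) and Lgmn (0.64). Lgmn, the protease legumain, passed neither single comparison, with 0.30 in PILECs and -0.34 in mESCs. Of matrix genes, Tinagl1 (1.98) and the integrin chain Itga3 (0.83) differed the same way, as did Flt1 (1.09), Vwf (0.93), Kit (0.96), Cubn (1.02) and Thy1 (0.62). The effect was lower in PILECs for Ttr (-2.47), Eomes (-1.002) and Twist1 (-0.57). The members were not tested in this way because the PILEC arrays chose them.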

How the results depend on the processing

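With 2 arrays per group, calls near the threshold moved with several choices. Sparc made the 1 member called lower in menin-null mESCs. That count was 0 with all probe sets fitted and adjusted over, where each gene was still read by its brightest (named all probe sets below). It was also 0 when the mESC arrays were fitted alone, with no moderation of the variances, and with the replicate block. It was 2 among genes with a group mean of at least 7, and 6 with a trend in the prior variance. With the mean of all probe sets, and without menin-null mESC array 2, the count was also 1 but the member was Lama1 (limma adjusted p = 0.0497 and 0.046), and Sparc was lost (0.099 and 0.061). No alternative called a member higher, by limma, and 0 had an unadjusted p under 0.05 in that direction. The members' other probe sets were not tested on their own. Among them 1 of Nid1 differed by 0.48 and 1 of Sparc by -0.67 in mESCs, with groups that did not overlap. Over fits that left out 1 array the count of lower members ran from 0 to 5. It was 5 without menin-null PILEC array 1 or array 2, and 0 without wild-type mESC array 1 or 2, menin-null mESC array 1, or wild-type PILEC array 1 or 2. Of the members' mESC differences 1 changed sign: Pth1r at 0.033 without wild-type mESC array 1 (limma adjusted p = 0.967), with a range over the arrays left out of -0.34 to 0.033.

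With no moderation, the 9 endoderm genes higher in menin-null PILECs became 5, the 5 lower in menin-null mESCs became 2, and the 10 with a higher effect in PILECs became 3. The mESC count was 8 with the filter at a group mean of 7, 9 with the trend and 0 with the mESC arrays alone. Leaving out 1 array gave 4 to 10 for the PILEC count, 0 to 5 for the mESC count and 6 to 11 for the difference.

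Other basement membrane genes higher in menin-null PILECs, 2 in the fit reported, were 1 with the mean of a gene's probe sets or no moderation, 4 with the trend, and 1 to 3 without an array. Those lower, also 2, were 1 without probe sets whose identifier ends in _s_at, _x_at or _a_at, with all probe sets, with the filter, with the trend and with the replicate block, 0 with no moderation, and 0 to 3 without an array. For the other 8 lists together, 9 genes higher in menin-null PILECs became 4 with all probe sets, 5 with PILEC arrays alone and 2 with no moderation (1 to 13 without an array), and 6 lower became 3 with all probe sets, 10 with the filter, 1 with no moderation and 3 with the replicate block (2 to 10 without an array). In mESCs the 4 genes higher over the other 9 lists became 0 with mESC arrays alone or no moderation (0 to 9 without an array). The 3 lower became 7 with the mean of probe sets, 6 with the filter, 11 with the trend, and 0 with mESC arrays alone or no moderation (0 to 8 without an array). Over the other 8 lists the PILEC counts were lowest (1 higher and 2 lower) without wild-type PILEC array 1 or 2 and highest (13 and 10) without menin-null mESC array 1 or 2, and over the other 9 lists the mESC counts were 0 in both directions without wild-type mESC array 1 or 2 and highest (9 and 8) without menin-null mESC array 2.

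Nothing in the labels pairs the samples by number. Across genes, the difference between arrays 1 and 2 correlated at -0.28 between the mESC lines and -0.23 between the PILEC lines, but at 0.21 between menin-null mESCs and PILECs and 0.06 between those of the wild type, and the block was not taken as a pairing. A block with the numbers crossed, added after seeing the data, left 1 member called and gave 10 endoderm and 4 other basement membrane genes higher in PILECs. The cause of these shifts was not tested, beyond fewer samples, or more features adjusted over, in some fits.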
